A study of Mus musculus with 16 samples.

Results

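The comparison set germline stem cells of the C57BL/6 strain background against germline stem cells of the DBA/2 strain, both wild type and both held at 1% oxygen. It used 4 of the 16 RNA-seq libraries in the series, 2 for each strain, and covered 14841 of 21924 protein-coding genes, those with a level of at least 1 in at least 2 of the 16 libraries. Levels are in CPM, reads of a gene scaled to a total of 1000000 per library. Germline stem cells are a culture of undifferentiated spermatogonia derived from mouse testes. They grew on feeder layers of mouse embryonic fibroblasts in a medium whose added growth factors were fibroblast growth factor 2 and the glial cell line-derived neurotrophic factor. The series text describes lines set up at 20% oxygen and then passaged into 1% oxygen, in gassed plastic bags, for 2 days. The C57BL/6 group is the wild-type counterpart of Top1mt knockout cells of the same background, and the DBA/2 group is the low-oxygen counterpart of DBA/2 wild-type cells kept at 20% oxygen. Values are also given from the Top1mt knockout at 1% oxygen, from DBA/2 cells at 20% oxygen, and from the wild-type cells of the Hif1a line, of mixed 129 and C57BL/6 background, at 1% oxygen. The library names mark that last group with 6 days, not 2. They mark both C57BL/6 groups with 2 days and give no days for the DBA/2 libraries. No C57BL/6 library at 20% oxygen was analysed here, so the values below are levels at 1% oxygen and say nothing on how strongly the C57BL/6 cells responded to it. The labels do not say how many lines or animals stood behind each strain, or whether the 2 libraries of a strain came from separate cultures. The p-values rest on the spread between libraries of the same group, pooled over the 8 groups of the 16 libraries. That spread may therefore be technical, and strain, cell line, culture and sequencing set cannot be told apart.

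Spermatogonial stem cells depend on the RET receptor and its co-receptor GFRA1, which bind glial cell line-derived neurotrophic factor, and on transcription factors that hold back differentiation. In low oxygen the hypoxia-inducible factors escape degradation and bind the core sequence RCGTG in genes for glucose uptake, glycolysis, pH control and collagen processing. Inbred mouse strains also carry fixed sequence differences, including gains, losses and divergence of clustered gene families, which reach the RNA level without any treatment.

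The 2 C57BL/6 libraries held 15959786 and 19305553 reads on genes, and the 2 DBA/2 libraries 20042031 and 22051828. Germ cell identity genes were abundant in all 4. Ddx4, a germ cell RNA helicase, stood at 469 and 439 CPM in C57BL/6 cells, against 702 and 696 CPM in DBA/2 cells. Markers of testis somatic cells were scarce, with a summed level over 15 genes of 51.1 and 51.5 CPM in C57BL/6 cells, against 57 and 60.3 CPM in DBA/2 cells. The 13 leukocyte markers summed to 32.5 and 30.3 CPM in C57BL/6 cells, against 29.7 and 27.2 CPM in DBA/2 cells. The steroidogenic enzyme gene Cyp17a1 averaged 0 CPM in C57BL/6 cells and 0.0249 CPM in DBA/2 cells, and the complement gene C1qb of macrophages averaged 0.0259 CPM in C57BL/6 cells and 0.0454 CPM in DBA/2 cells. Of 9 testis somatic markers tested, Inha was higher, and Rhox5, Sox9 and Wt1 were lower, the last of these uncalled under 7 of the alternatives run. Of 8 leukocyte markers tested, Cd3e was higher and Ptprc lower. Top1mt, the gene targeted in the knockout, was present in both wild types, at 32.8 and 34.8 CPM in C57BL/6 cells and 40.3 and 43.0 CPM in DBA/2 cells, while the knockout libraries averaged 10.5 CPM.

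Most genes differed between the 2 sets of libraries, nearly all by less than 2-fold. In limma on log2(CPM + 1), with Benjamini-Hochberg adjusted p under 0.05, 4284 genes were higher in C57BL/6 cells (28.9% of those tested) and 4890 were lower (32.9%), together 61.8%. At least 2-fold differences were called for 498 genes higher (3.36%) and 280 lower (1.89%). The median log2 fold change over all genes was -0.03, with quartiles of -0.29 and 0.29. For 12093 genes (81.5%) the libraries of the 2 strains did not overlap, so lack of overlap was the rule. The count of 2-fold differences depended on the method: a pseudocount of 0.1 in place of 1 gave 824 higher and 569 lower, and edgeR on reads recovered from the CPM steps, which also changes the model and the scaling, gave 1005 higher and 525 lower.

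**Figure D1:**
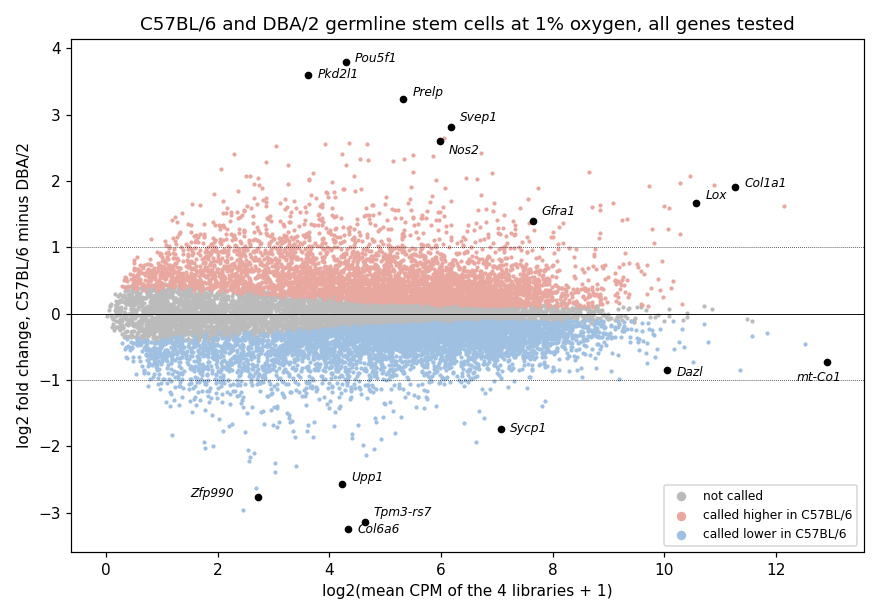
Each point is a gene tested, with the log2 of its mean CPM over the 4 libraries (plus 1) on the x axis and its log2 fold change, C57BL/6 minus DBA/2, on the y axis. Dotted lines mark 2-fold. The largest differences reached 3.79 for Pou5f1 and -3.24 for Col6a6, while most of the called genes lie between the dotted lines.

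Genes of 3 whole chromosomes stood higher in the C57BL/6 cells. Among genes with a mean of at least 10 CPM over the 16 libraries, the median log2 fold change was 0.34 on chromosome 2 (845 genes), 0.39 on chromosome 6 (490 genes) and 0.41 on chromosome 19 (362 genes). On the other 16 autosomes the chromosome medians lay between -0.19 and -0.04. The 3 chromosomes together differed from those autosomes by 0.47 on the log2 scale, a 1.38-fold step. The shift ran along their full length. Of 21 stretches of 20 Mb with at least 20 such genes on the 3 chromosomes, all 21 had a positive median, from 0.11 to 0.52, against 10 of 106 stretches elsewhere, where medians ran from -0.34 to 0.08.

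The shift was present in both C57BL/6 wild-type libraries. Relative to each gene's median over 16 libraries, the genes of chromosome 2 deviated by 0.32 and 0.32, those of chromosome 6 by 0.30 and 0.29, and those of chromosome 19 by 0.36 and 0.38, while the other autosomes deviated by -0.05 to 0.00. In the DBA/2 wild-type libraries at 1% oxygen the 3 chromosomes deviated by -0.03 to 0.01. In the other 14 libraries of the series the highest value was 0.03 for chromosome 2, 0.03 for chromosome 19 and 0.13 for chromosome 6, the last in the Top1mt knockout libraries of the same background. These 3 chromosomes held 2391 of the genes tested, of which 1514 were called higher in C57BL/6 cells (63.3%), against 22.5% of genes on the other 16 autosomes. They were singled out after their values were seen, so no test is attached to them, and the number of chromosome copies in the lines was not tested. Most genes below that lie on one of them are marked with their chromosome.

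**Figure D2:**
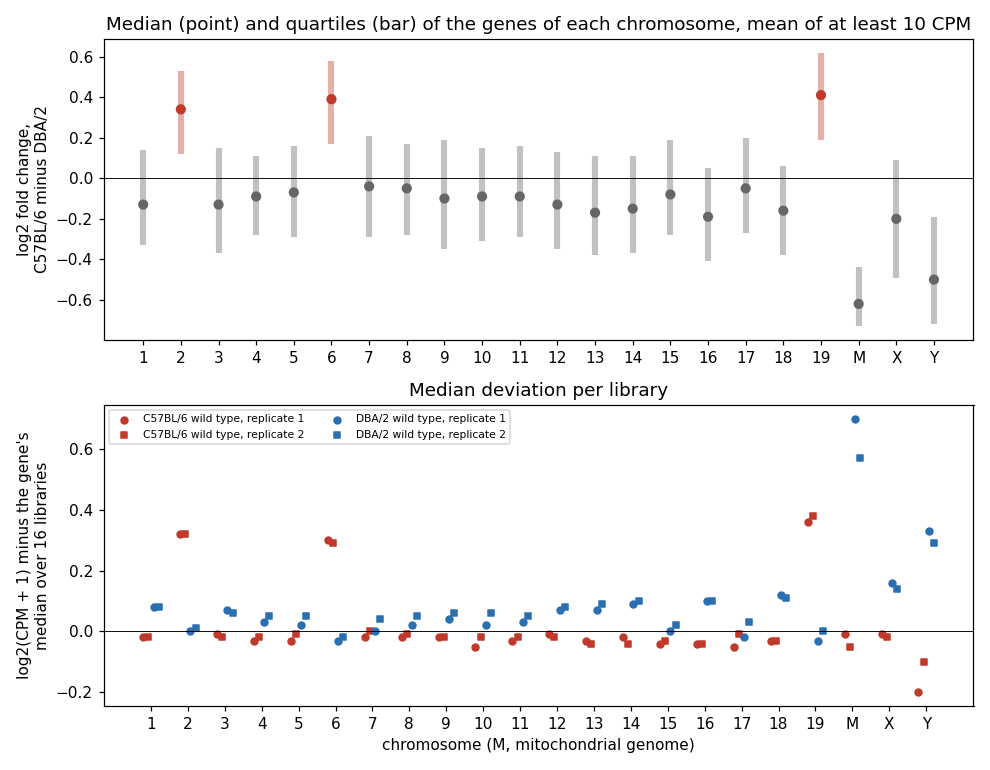
The upper panel gives the median and quartiles of the log2 fold change, C57BL/6 minus DBA/2, over the genes of each chromosome with a mean of at least 10 CPM. The lower panel gives, for each of the 4 libraries, the median deviation of the same genes from their own medians over 16 libraries. Chromosomes 2, 6 and 19 stand at 0.34, 0.39 and 0.41 in the upper panel, and both C57BL/6 libraries lie between 0.29 and 0.38 there in the lower panel.

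The largest difference of all belonged to Pou5f1, which encodes a transcription factor of pluripotent cells and of the germ line (chromosome 17, 35506018 to 35510772, plus strand, mm10). Pou5f1 stood at 35.7 and 35.4 CPM in C57BL/6 cells, against 1.70 and 1.59 CPM in DBA/2 cells, a log2 fold change of 3.79 (SE 0.12, adjusted p = 2.5e-14). Both C57BL/6 libraries were far above both DBA/2 libraries. The mean was 25.7 CPM in the Top1mt knockout cells of the C57BL/6 background, 2.06 CPM in the mixed-background wild type at 1% oxygen and 3.79 CPM in DBA/2 cells at 20% oxygen. Copies of this gene exist elsewhere in the mouse genome, and the level is uncertain as far as reads were shared with them. Of 9 genes on that list 6 were tested. Klf4 was also higher (log2 fold change 0.22), but only just past the threshold, and without C57BL/6 replicate 1 or DBA/2 replicate 1 it was not called. Sox2 and Zfp42 were lower, with log2 fold changes of -1.26 and -1.53. Nanog, which averaged 0.764 CPM in C57BL/6 cells and 0.571 CPM in DBA/2 cells, was below the filter.

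The sequence upstream of Pou5f1 is shown because that gene gave the largest difference. It covers the 250 bases before the first of 2 annotated starts (chr17:35505782-35506031, plus strand, RefSeq sequence on GRCm38.p6), and the capitals mark GGGCGG, the letters of a GC box, found once, starting 45 bases before the start. On either strand, GGGCGG occurred in the same window of 35.4% of 27025 genes in the RefSeq promoter table. The reference is a C57BL/6J genome, so no DBA/2 letters are shown.
Pou5f1: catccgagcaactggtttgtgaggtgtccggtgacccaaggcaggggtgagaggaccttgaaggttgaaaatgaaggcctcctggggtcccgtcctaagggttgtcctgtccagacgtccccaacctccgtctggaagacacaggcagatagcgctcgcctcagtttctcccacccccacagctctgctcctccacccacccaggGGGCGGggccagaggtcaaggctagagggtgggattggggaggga

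Pkd2l1, which encodes a polycystin family ion channel, came next. It stood at 21.5 and 21.96 CPM in C57BL/6 cells, against 0.798 and 0.952 CPM in DBA/2 cells, a log2 fold change of 3.60 (adjusted p = 6.1e-13). The groups did not overlap, which the rule for the largest rises required, and the gene lies on chromosome 19. It averaged 12.7 CPM in Top1mt knockout cells of the C57BL/6 background and 0.0364 CPM in the mixed-background wild type at 1% oxygen. Nos2, the inducible nitric oxide synthase, stood at 104 and 110 CPM in C57BL/6 cells, against 15.4 and 18.5 CPM in DBA/2 cells (log2 fold change 2.596, adjusted p = 2.8e-11). In DBA/2 cells at 20% oxygen Nos2 averaged 0.487 CPM, a level below that of every library of either strain at 1% oxygen.

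The other 9 of the 12 largest rises were genes of secreted proteins or of the cell surface and matrix. They include Prelp, Fmod, Lum and Ogn, small leucine-rich proteoglycans that bind collagen, and Adamts5, a protease that cleaves aggrecan. Prelp stood at 74.5 and 67.9 CPM in C57BL/6 cells, against 7.88 and 5.62 CPM in DBA/2 cells (log2 fold change 3.23). Adamts5 stood at 110 and 116 CPM in C57BL/6 cells, against 17.4 and 16.96 CPM in DBA/2 cells (log2 fold change 2.65). Svep1, Islr, Ccdc80 and, on chromosome 6, Rarres2 had log2 fold changes of 2.81, 2.53, 2.42 and 2.41. All 9 were also at 10 CPM or more in both other 1% oxygen groups named above, the Top1mt knockout and the mixed-background wild type.

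**Figure D3:**
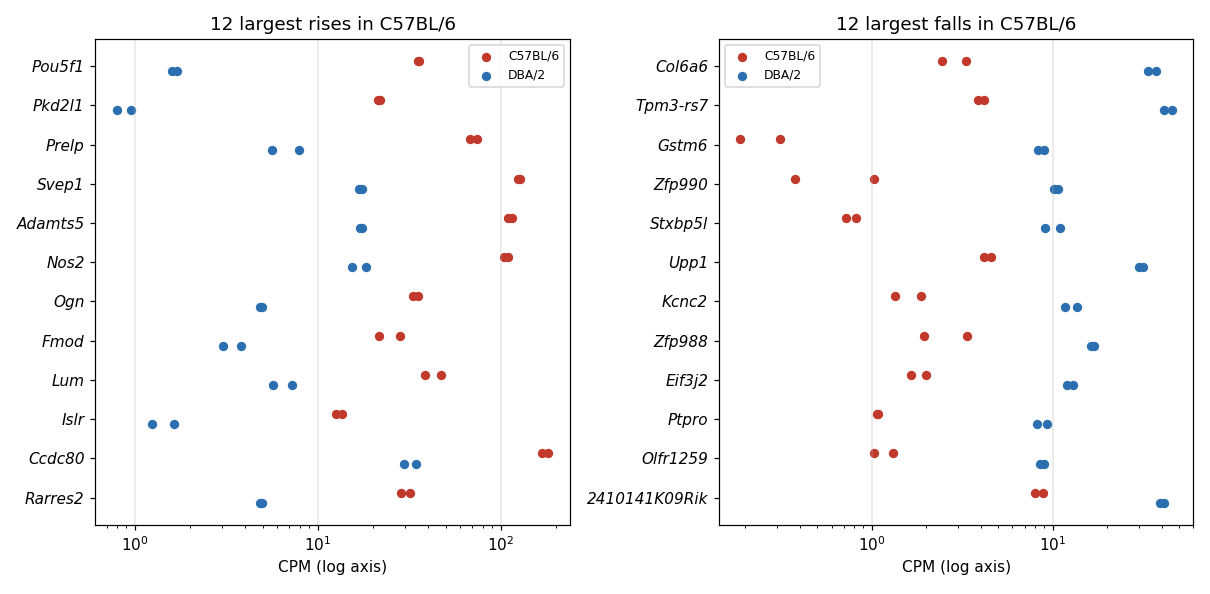
CPM on a log axis in each of the 4 libraries for the 12 largest rises and the 12 largest falls, with the C57BL/6 pair drawn above the DBA/2 pair of each gene. The rule that chose these genes required no overlap, so the pairs are separated in every row. The rows run from Pou5f1 at 35.7 and 35.4 CPM against 1.70 and 1.59 CPM to 2410141K09Rik at 8.02 and 8.86 CPM against 41.1 and 39.2 CPM.

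Markers of the feeder fibroblasts were higher in the C57BL/6 libraries as a group. The 26 markers, mostly collagens and other matrix genes, summed to 26658 and 26635 CPM in C57BL/6 cells, against 8562 and 7688 CPM in DBA/2 cells, 3.28 times as much. Of the 26, 24 were higher (92.3%, against 28.9% of all genes) and 2 lower (7.69%, against 32.9%). The median log2 fold change was 1.60. Col1a1, a fibrillar collagen chain, stood at 3774 and 4024 CPM in C57BL/6 cells, against 1062 and 1021 CPM in DBA/2 cells (log2 fold change 1.90). Col3a1, another fibrillar collagen, stood at 2312 and 2261 CPM in C57BL/6 cells, against 556 and 526 CPM in DBA/2 cells (log2 fold change 2.08). The exceptions were Pdgfra and Twist1, a growth factor receptor and a transcription factor of mesenchymal cells, which were lower by small amounts (log2 fold changes of -0.31 and -0.33). In bulk RNA, more cells of a type and more RNA per cell cannot be told apart.

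The germ cell identity list moved the other way. Its 18 genes summed to 4496 and 4440 CPM in C57BL/6 cells, against 6266 and 6305 CPM in DBA/2 cells, a ratio of 0.711. Of the 18, 14 were lower (77.8%, against 32.9% of all genes) and none higher, with a median log2 fold change of -0.42. Dazl, an RNA-binding protein of germ cells, stood at 768 and 750 CPM in C57BL/6 cells, against 1392 and 1349 CPM in DBA/2 cells (log2 fold change -0.85, adjusted p = 2.7e-10). Tex19.1, Usp26 and Taf7l, all expressed mainly in germ cells, had log2 fold changes of -0.69, -0.80 and -0.66. CPM are shares of a fixed total. The part of the feeder and germ cell sums in any single result was not tested. The Top1mt knockout cells had a feeder sum of 51447 CPM and a germ cell sum of 3381 CPM.

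**Figure D4:**
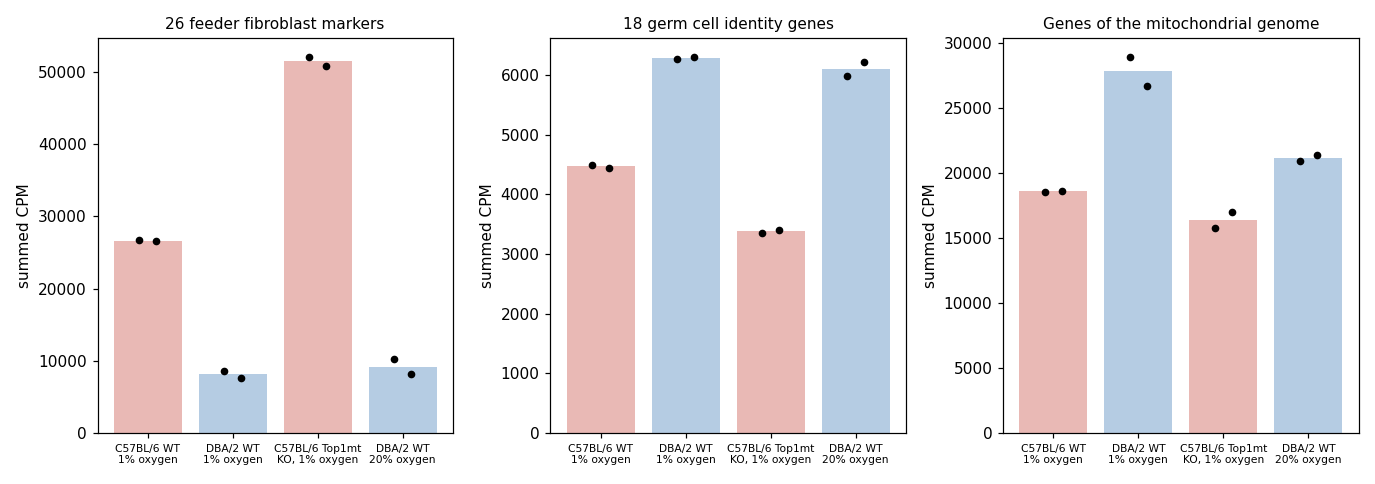
Bars give mean summed CPM and points the 2 libraries, for feeder markers, germ cell identity genes and the mitochondrial genome, in C57BL/6 and DBA/2 wild-type cells at 1% oxygen, then Top1mt knockout cells at 1% oxygen and DBA/2 cells at 20% oxygen. Feeder markers averaged 26646 CPM in C57BL/6 wild-type cells and 8125 CPM in DBA/2 cells at 1% oxygen, and the other 2 sums were lower in C57BL/6 cells.

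Secreted inflammatory proteins were mostly higher. Of 12 acute-phase and chemokine genes tested, 10 were higher (83.3%, against 28.9% of all genes), with a median of 1.12. Only 1, Cxcl10, was lower (log2 fold change -1.35, named after its value was seen). Saa3, an acute-phase protein, stood at 46.7 and 37.6 CPM in C57BL/6 cells, against 9.33 and 6.26 CPM in DBA/2 cells (log2 fold change 2.31). Ptx3, a pentraxin, had a log2 fold change of 1.89, and C3, a complement component, of 0.98. Saa3 averaged 272 CPM in the mixed-background wild type at 1% oxygen, whose feeder markers summed to 37915 CPM. The listed inflammatory genes together averaged 2147 CPM in that group. They averaged 798.5 CPM in the Top1mt knockout cells, whose feeder sum was higher, at 51447 CPM.

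At the other end, Col6a6 gave the largest fall (chromosome 9, 105687809 to 105828160, minus strand, mm10). Col6a6 encodes a collagen type VI chain, and stood at 3.32 and 2.44 CPM in C57BL/6 cells, against 37.1 and 33.7 CPM in DBA/2 cells, a log2 fold change of -3.24 (SE 0.10, adjusted p = 2.5e-14). Its direction was opposite to that of the other collagens named here. It averaged 1.26 CPM in Top1mt knockout cells and 33.4 CPM in DBA/2 cells at 20% oxygen. Stxbp5l, a syntaxin-binding protein gene, stood at 0.815 and 0.725 CPM in C57BL/6 cells, against 9.03 and 10.97 CPM in DBA/2 cells (log2 fold change -2.63). Kcnc2, a voltage-gated potassium channel gene, stood at 1.88 and 1.35 CPM in C57BL/6 cells, against 13.6 and 11.7 CPM in DBA/2 cells (log2 fold change -2.39). Ptpro, a receptor tyrosine phosphatase gene on chromosome 6, was lower (log2 fold change -2.23) on a chromosome whose genes were mostly higher.

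Upp1 encodes uridine phosphorylase. It stood at 4.20 and 4.56 CPM in C57BL/6 cells, against 30.1 and 31.7 CPM in DBA/2 cells (log2 fold change -2.57, adjusted p = 2.5e-12). In the Top1mt knockout cells, also of C57BL/6 background and at 1% oxygen, it averaged 44.6 CPM. The low level was thus not shared by both C57BL/6 groups. Tpm3-rs7, Gstm6 and Eif3j2, which have near-identical relatives in the genome, had log2 fold changes of -3.14, -2.95 and -2.25, and because shared reads may have been split among copies these values are uncertain. Olfr1259 on chromosome 2, of the olfactory receptor family, had a log2 fold change of -2.16 under the same reservation.

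Many of the falls were zinc finger genes, a pattern noticed after the values were seen and given as a description. Of 370 tested genes whose symbols begin with Zfp, 246 were lower (66.5%, against 32.9% of all genes) and 39 higher. At least 2-fold lower were 46 (12.4%, against 1.89% of all genes). The list median was -0.45, against -0.02 for all other genes. They were unevenly placed: 18 of 46 on chromosome 17, 9 of 33 on chromosome 13 and 8 of 25 on chromosome 4 were at least 2-fold lower, against 11 of 266 elsewhere. Within chromosome 4, 7 of the 8 lay between 145510759 and 147702553 (2.2 Mb, mm10), with log2 fold changes from -2.77 to -1.25. On chromosome 17, 12 of the 18 lay between 21383748 and 23193252, and on chromosome 13 all 9 lay between 62129886 and 67729173. These blocks hold tandem arrays of related zinc finger genes, a family with many KRAB-type repressors of transposable elements.

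Zfp990 stood at 0.376 and 1.04 CPM in C57BL/6 cells, against 10.1 and 10.7 CPM in DBA/2 cells (log2 fold change -2.77). Zfp988 stood at 1.94 and 3.37 CPM in C57BL/6 cells, against 16.2 and 16.9 CPM in DBA/2 cells (log2 fold change -2.29). For neither gene did the strains overlap, which the rule for the largest falls required. The Top1mt knockout cells were at 0.873 and 2.23 CPM for Zfp990 and Zfp988, and DBA/2 cells at 20% oxygen at 10.5 and 18.9 CPM. Those 2 groups share no library with the C57BL/6 and DBA/2 wild types compared here. The at least 2-fold lower genes of the blocks, 7 on chromosome 4, 9 on chromosome 13 and 12 on chromosome 17, all had negative log2 fold changes between them too. Not all genes of the blocks were 2-fold lower. Of the tested Zfp genes lying wholly within them, 11 of 13 on chromosome 4 were called lower. So were 22 of 22 on chromosome 13 and 20 of 20 on chromosome 17, and none was called higher. These counts include the 2-fold lower genes that set the limits of the blocks, so they were partly fixed in advance. Over the whole of chromosomes 4, 13 and 17, 19 of 25, 30 of 33 and 42 of 46 Zfp genes were called lower. Of all genes tested on these chromosomes, 38.4%, 46.6% and 34.5% were called lower. Members of such arrays resemble one another, reads were aligned to mm10, a C57BL/6J assembly, and how DBA/2 reads from diverged copies were placed was not tested.

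The likeness within a block can be seen upstream of Zfp988 and Zfp979, a neighbour chosen after its values were seen (mean 8.90 CPM in C57BL/6 cells and 37.9 CPM in DBA/2 cells, log2 fold change -1.98). The windows are the 250 bases before each annotated start, chr4:147305354-147305603 on the plus strand for Zfp988 and chr4:147642509-147642758 on the minus strand for Zfp979 (RefSeq, GRCm38.p6). Aligned with free ends they matched at 200 of 227 positions (88.1%), and the capitals mark the longest run they share, 22 bases.
Zfp988: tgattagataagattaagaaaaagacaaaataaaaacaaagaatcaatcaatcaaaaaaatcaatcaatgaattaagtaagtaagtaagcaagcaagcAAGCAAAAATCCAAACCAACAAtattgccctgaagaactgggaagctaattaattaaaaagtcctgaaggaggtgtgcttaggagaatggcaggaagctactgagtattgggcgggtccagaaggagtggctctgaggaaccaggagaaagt
Zfp979: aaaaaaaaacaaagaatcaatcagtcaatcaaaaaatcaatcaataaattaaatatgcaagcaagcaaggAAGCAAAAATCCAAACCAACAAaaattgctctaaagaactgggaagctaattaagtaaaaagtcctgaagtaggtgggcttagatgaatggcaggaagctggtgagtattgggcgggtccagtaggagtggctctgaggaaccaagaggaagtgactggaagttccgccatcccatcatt

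Skint2, of a family of skin and thymus immunoglobulin-like genes, was the sole gene with at most 3 reads in both libraries of one strain and at least 2 CPM in the other (chromosome 4, 112557194 to 112652248, plus strand, mm10). It had 0 and 0 reads in C57BL/6 cells, against 50 and 57 reads in DBA/2 cells, at least 14.8-fold lower in C57BL/6 when set against 3 reads per library. It was also at 0 in the Top1mt knockout cells and averaged 4.21 CPM in DBA/2 cells at 20% oxygen. No gene met the same criterion with DBA/2 as the low strain. Of 15 genes known to vary in sequence or dosage between common inbred strains, 9 were tested. Gpnmb on chromosome 6, Nnt and Ahr were among the higher genes, and Alad was lower. Ahr was not called without C57BL/6 replicate 1. Alad, the second enzyme of heme synthesis, whose gene is duplicated in DBA/2 mice, stood at 34.8 and 37.9 CPM in C57BL/6 cells, against 70.6 and 78.7 CPM in DBA/2 cells (log2 fold change -1.02, adjusted p = 2.3e-10). Nnt, the mitochondrial transhydrogenase gene, part of which is deleted in the C57BL/6J substrain, stood at 20.4 and 19.8 CPM in C57BL/6 cells, against 15.4 and 12.6 CPM in DBA/2 cells (log2 fold change 0.50). Counts per gene do not show which exons the reads cover. Glo1, a methylglyoxal-detoxifying enzyme, stood at 53.7 and 49.8 CPM in C57BL/6 cells, against 50.2 and 48.9 CPM in DBA/2 cells and was not called (log2 fold change 0.06, SE 0.07). The number of gene copies in these cells was not tested for Alad, Glo1 or any other gene named here.

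Hypoxia targets stood higher in the C57BL/6 cells. Of 40 targets outside glycolysis, 27 were higher (67.5%, against 28.9% of all genes) and 5 lower, with a median log2 fold change of 0.36. Their sum was 10000 and 9851 CPM in C57BL/6 cells, against 6340 and 5859 CPM in DBA/2 cells, and 2868 CPM on average in DBA/2 cells at 20% oxygen. Of the 40, 8 lie on chromosomes 2, 6 or 19, and among the other 32, 21 were higher with a median of 0.32. The 5 lower genes were Bnip3l, Ddit4, Ankrd37, Ak4 and Wsb1, named after their values were seen, with log2 fold changes from -0.63 to -0.25. Bnip3l encodes a mitophagy receptor and Ddit4 an inhibitor of the growth kinase mTOR.

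Car12, a membrane carbonic anhydrase that acts in pH control, stood at 193 and 182 CPM in C57BL/6 cells, against 60.0 and 56.1 CPM in DBA/2 cells (log2 fold change 1.67, adjusted p = 7.9e-12). Lox, which crosslinks collagen and is also made by fibroblasts, stood at 2340 and 2297 CPM in C57BL/6 cells, against 794 and 674 CPM in DBA/2 cells (log2 fold change 1.66). P4ha2, a collagen prolyl hydroxylase subunit, stood at 274 and 280 CPM in C57BL/6 cells, against 156 and 149 CPM in DBA/2 cells (log2 fold change 0.86). For all 3 the libraries of the 2 strains did not overlap, as for 81.5% of all genes tested. In the Top1mt knockout cells Car12, Lox and P4ha2 averaged 306, 4290 and 554 CPM. Vegfa, the vascular growth factor, stood at 190 and 191 CPM in C57BL/6 cells, against 116 and 112 CPM in DBA/2 cells (log2 fold change 0.73). Mxi1, a MYC antagonist on chromosome 19, had a log2 fold change of 0.72. Feeder fibroblasts express part of this list, and the feeder sum was 3.28 times as high in the C57BL/6 libraries. The part it had in these differences was not tested.

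Of 22 genes of glycolysis and of glucose or lactate transport, 16 were higher (72.7%, against 28.9% of all genes). Only 2 were lower (9.09%, against 32.9%), and the median was 0.40. All 8 members on chromosomes 2, 6 or 19 were higher, and among the other 14, 8 were higher with a median of 0.24. Slc2a3, a neuronal-type glucose transporter on chromosome 6, stood at 646 and 645 CPM in C57BL/6 cells, against 294 and 263 CPM in DBA/2 cells (log2 fold change 1.21). Hk2, an inducible hexokinase on chromosome 6, stood at 423 and 434 CPM in C57BL/6 cells, against 241 and 233 CPM in DBA/2 cells (log2 fold change 0.85). Ldhb on chromosome 6 and Pdk1 on chromosome 2, a lactate dehydrogenase subunit and a kinase that turns off pyruvate dehydrogenase, had log2 fold changes of 1.09 and 0.75. Away from those chromosomes the differences were smaller. Slc16a3, the lactate exporter, stood at 175 and 193 CPM in C57BL/6 cells, against 120 and 111 CPM in DBA/2 cells (log2 fold change 0.66). Slc2a1, the widely used glucose transporter, stood at 440 and 453 CPM in C57BL/6 cells, against 378 and 363 CPM in DBA/2 cells (log2 fold change 0.27, adjusted p = 0.00017). The lower genes were Slc16a1, another lactate transporter, and Eno1, an enolase (log2 fold changes of -0.56 and -0.18, named after their values were seen). Eno1 was not called under TMM, median-of-ratios scaling, edgeR or DESeq2, or without C57BL/6 replicate 1.

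**Figure D5:**
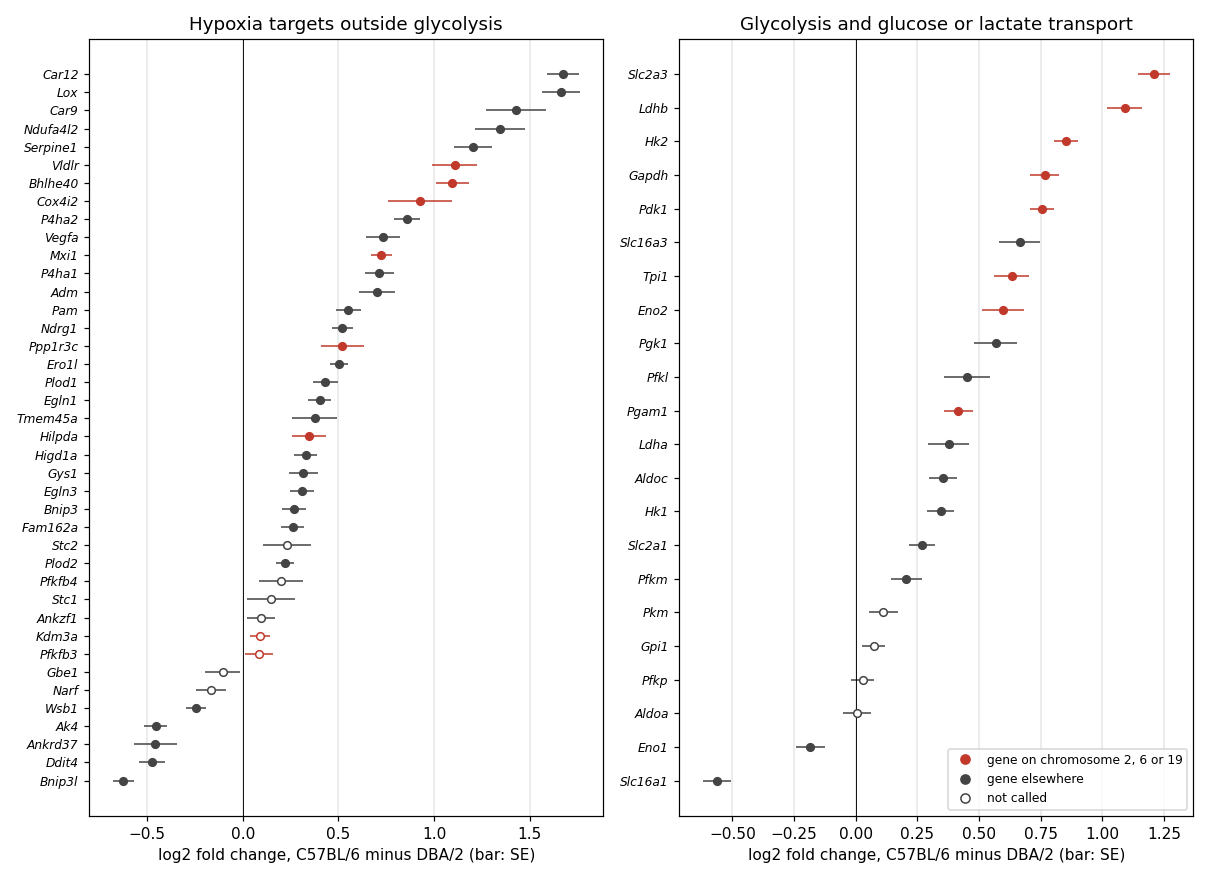
Log2 fold change, C57BL/6 minus DBA/2, with its SE for each hypoxia target (left) and each glycolysis or transport gene (right). Open symbols were not called, and red marks genes on chromosomes 2, 6 or 19. Red genes fill the top of the right panel, led by Slc2a3 at 1.21, while the top of the left panel is held by Car12 and Lox at 1.67 and 1.66, which lie elsewhere.

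The hypoxia-inducible factor components were divided. Of 11 genes 5 were higher (45.5%, against 28.9% of all genes) and 3 lower (27.3%, against 32.9%). Epas1, the alpha subunit of a hypoxia-inducible factor, stood at 81.3 and 82.3 CPM in C57BL/6 cells, against 41.7 and 45.0 CPM in DBA/2 cells (log2 fold change 0.90, adjusted p = 1.9e-10). Hif1a, the other main alpha subunit, stood at 154 and 148 CPM in C57BL/6 cells, against 113 and 104 CPM in DBA/2 cells (log2 fold change 0.47). The co-activator Crebbp and the regulator Cited2 had log2 fold changes of -0.42 and -0.52. The remaining called members, named after their values were seen, were Hif1an and Vhl at 0.35 each, both on the shifted chromosomes, Arnt at 0.14 and Hif3a at -0.52. Arnt was not called without C57BL/6 replicate 2 or DBA/2 replicate 1. These are transcript levels, while the factors are regulated chiefly through protein stability.

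Windows upstream of P4ha2, Slc16a3 and Hk2 are shown because these targets differed between strains and hold ACGTG, one form of the core bound by hypoxia-inducible factors (in capitals; CACGT is the same motif on the other strand). They cover chr11:54100674-54100923 on the plus strand, chr11:120948817-120949066 on the plus strand and chr6:82774455-82774704 on the minus strand (RefSeq, GRCm38.p6). The motif starts 78 bases before the start of P4ha2, 27 and 14 bases before that of Slc16a3, and 226 and 52 bases before that of Hk2. On either strand it occurred in these windows in 18 of 31 hypoxia targets with an entry in the table (58.1%) and in 10 of 21 glycolysis genes (47.6%), against 18.5% of all 27025 genes. The GC box letters GGGCGG were also more frequent in these lists than in all genes, in 25 of the 31 hypoxia targets (80.6%) and 14 of the 21 glycolysis genes (66.7%), against 35.4%. A match is a string of letters in the reference and does not show binding, and whether the windows differ in DBA/2 was not tested.
P4ha2: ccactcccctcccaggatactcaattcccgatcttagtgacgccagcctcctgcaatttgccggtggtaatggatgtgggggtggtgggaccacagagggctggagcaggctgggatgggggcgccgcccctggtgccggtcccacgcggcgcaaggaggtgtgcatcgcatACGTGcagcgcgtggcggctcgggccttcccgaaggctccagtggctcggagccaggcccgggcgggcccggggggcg
Slc16a3: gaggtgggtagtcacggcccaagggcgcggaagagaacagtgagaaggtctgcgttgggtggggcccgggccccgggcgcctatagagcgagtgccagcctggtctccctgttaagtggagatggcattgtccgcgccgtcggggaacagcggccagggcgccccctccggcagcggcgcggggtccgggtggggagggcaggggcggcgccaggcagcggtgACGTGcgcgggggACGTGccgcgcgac
Hk2: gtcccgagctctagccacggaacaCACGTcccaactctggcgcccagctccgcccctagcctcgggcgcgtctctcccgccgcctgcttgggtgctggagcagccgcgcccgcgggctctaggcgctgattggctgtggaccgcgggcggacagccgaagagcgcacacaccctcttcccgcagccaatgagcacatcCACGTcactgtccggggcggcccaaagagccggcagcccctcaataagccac

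Of 28 self-renewal genes of spermatogonia 10 were higher (35.7%, against 28.9% of all genes) and 12 lower (42.9%, against 32.9%), shares not far from the background, and 6 of the 10 lie on chromosomes 2, 6 or 19. Gfra1, the co-receptor gene on chromosome 19 (58235604 to 58455909, minus strand, mm10), stood at 293 and 283 CPM in C57BL/6 cells, against 114 and 104 CPM in DBA/2 cells (log2 fold change 1.39, adjusted p = 3.2e-12). Ret, the receptor gene on chromosome 6, stood at 348 and 335 CPM in C57BL/6 cells, against 199 and 194 CPM in DBA/2 cells (log2 fold change 0.79). Both exceeded the median of their own chromosomes, 0.41 and 0.39. In the Top1mt knockout cells Gfra1 averaged 57.03 CPM and Ret 128 CPM, and in DBA/2 cells at 20% oxygen 251 and 376 CPM. Cd9, a surface protein gene on chromosome 6, had a log2 fold change of 0.70.

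Among the lower self-renewal genes were transcriptional regulators. Id4, an inhibitor of helix-loop-helix factors that marks stem cells, stood at 22.3 and 24.2 CPM in C57BL/6 cells, against 57.3 and 56.6 CPM in DBA/2 cells (log2 fold change -1.26, adjusted p = 2.8e-11). Zbtb16, a repressor needed for stem cell maintenance, stood at 109 and 105 CPM in C57BL/6 cells, against 165 and 178 CPM in DBA/2 cells (log2 fold change -0.68). In DBA/2 cells at 20% oxygen Zbtb16 averaged 492 CPM, a level above that of every library of either strain at 1% oxygen.

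Differentiation genes were mostly lower too, 9 of 15 (60%, against 32.9% of all genes), with 3 higher (20%, against 28.9%). Their median was -0.27. Among the 11 outside chromosomes 2, 6 and 19, 8 were lower and 1 higher, with a median of -0.61. Kit, the receptor of differentiating spermatogonia, stood at 81.3 and 82.4 CPM in C57BL/6 cells, against 142 and 151 CPM in DBA/2 cells (log2 fold change -0.83, adjusted p = 3.1e-10). Sox3, a transcription factor of spermatogonia that are leaving the stem cell state, had a log2 fold change of -1.03. Stra8, a retinoic acid target on chromosome 6, was higher at 204 and 218 CPM in C57BL/6 cells, against 156 and 166 CPM in DBA/2 cells (log2 fold change 0.39), close to its chromosome's median of 0.39. The other 2 higher genes, named after their values were seen, were Rhox13 (0.22) and Dnmt3b on chromosome 2 (0.16). Neither of these was called when C57BL/6 replicate 2 or DBA/2 replicate 1 was left out, and Rhox13 was also not called without C57BL/6 replicate 1.

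Meiotic prophase genes were lower in 17 of 26 cases (65.4%, against 32.9% of all genes) and higher in 4 (15.4%, against 28.9%). Their median was -0.22, and DESeq2 called 11 lower. Sycp1, of the synaptonemal complex, stood at 56.6 and 65.7 CPM in C57BL/6 cells, against 207 and 203 CPM in DBA/2 cells (log2 fold change -1.73, adjusted p = 2.9e-11). Hormad1 and Tex15, which act in chromosome pairing and recombination, had log2 fold changes of -1.13 and -0.98. Stag3, a meiotic cohesin subunit, was higher (0.52), as were Msh5, Spo11 on chromosome 2 and Mei1, named after their values were seen (0.67, 0.55 and 0.22). Mei1 was not called without C57BL/6 replicate 2 or DBA/2 replicate 1. The Y-linked genes on the list were lower as well, 7 of 7, and summed to 184.0 and 184.4 CPM in C57BL/6 cells, against 293.5 and 286.2 CPM in DBA/2 cells. Of all 11 tested genes on the Y chromosome, 9 were lower and 1 was higher. Usp9y had a log2 fold change of -0.86 and Eif2s3y, a translation factor subunit that spermatogonia require, of -0.58.

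Transcripts of the mitochondrial genome were lower in the C57BL/6 cells. The 13 genes summed to 18555 and 18589 CPM in C57BL/6 cells, against 28919 and 26694 CPM in DBA/2 cells, with 7 tested and all 7 lower (median -0.62). mt-Nd1, of complex I, stood at 1870 and 1858 CPM in C57BL/6 cells, against 3495 and 3234 CPM in DBA/2 cells (log2 fold change -0.85). mt-Co1, of complex IV, had a log2 fold change of -0.73. The other 6 genes of the mitochondrial genome were listed at 0 in all 4 libraries, although every cell uses them, so those zeros say nothing on their level. The sum averaged 16348 CPM in Top1mt knockout cells and 21123 CPM in DBA/2 cells at 20% oxygen. The nuclear genes that maintain and transcribe mitochondrial DNA were lower in 10 of 21 cases (47.6%, against 32.9% of all genes) and higher in 2 (9.52%, against 28.9%). The 2 were Ssbp1 on chromosome 6 and Twnk on chromosome 19 (0.28 and 0.21, named after their values were seen). Twnk was not called without C57BL/6 replicate 2 or DBA/2 replicate 1, while 4 genes were higher under TMM and 5 with edgeR. Tefm, a mitochondrial elongation factor, had a log2 fold change of -0.74 and Top1mt, the mitochondrial topoisomerase, of -0.29 (adjusted p = 0.0014). Of the 6 topoisomerases 3 were lower (50%, against 32.9% of all genes), Top1mt, Top3a and Top2a. Another 2 were higher (33.3%, against 28.9%), Top2b (0.43) and, named after its value was seen, Top3b (0.16). Top3b was not called without C57BL/6 replicate 1 or DBA/2 replicate 1.

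Of 43 nuclear respiratory chain genes, 19 were higher (44.2%, against 28.9% of all genes) and 12 lower (27.9%, against 32.9%). Their median was 0.05. The lower count depended on the scaling: it was 5 under TMM, median-of-ratios scaling and edgeR, 3 under DESeq2 and 7 without C57BL/6 replicate 2. All 10 members on chromosomes 2, 6 or 19 were higher, and among the other 33, 9 were higher and 12 lower with a median of -0.02. Ndufs3, of complex I and on chromosome 2, stood at 68.6 and 62.6 CPM in C57BL/6 cells, against 43.5 and 45.2 CPM in DBA/2 cells (log2 fold change 0.55). The 4 members with the smallest adjusted p, Ndufs3, Ndufa4, Atp5c1 and Ndufs8, all lie on those chromosomes.

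Cholesterol genes were mostly higher. Of 25 genes 15 were higher (60%, against 28.9% of all genes) and 3 lower (12%, against 32.9%), with a median of 0.28. Among the 24 outside chromosomes 2, 6 and 19, 14 were higher with a median of 0.28. Srebf2, a transcription factor that regulates the pathway, had a log2 fold change of 0.45. Idi1, an isomerase early in the pathway, was lower at 10.7 and 10.2 CPM in C57BL/6 cells, against 20.5 and 20.1 CPM in DBA/2 cells (log2 fold change -0.90). The other lower genes were Insig1 and Hmgcs1 (-0.28 and -0.19, named after their values were seen).

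Interferon response genes were lower in 17 of 36 cases (47.2%, against 32.9% of all genes). They were higher in 5 (13.9%, against 28.9%), and their median was -0.34. Ifih1, a sensor of double-stranded RNA on chromosome 2, stood at 5.45 and 3.68 CPM in C57BL/6 cells, against 16.8 and 18.7 CPM in DBA/2 cells (log2 fold change -1.77, adjusted p = 2.5e-10). Rsad2 and Parp14, an antiviral enzyme and an ADP-ribosyltransferase, had log2 fold changes of -1.26 and -0.98. Oasl2, of the oligoadenylate synthetase family, went the other way, at 55.1 and 51.2 CPM in C57BL/6 cells, against 15.6 and 19.3 CPM in DBA/2 cells (1.56). The remaining 4 higher genes were Isg20, Irf7, Irf9 and Stat2, named after their values were seen, from 0.85 to 0.18. Leaving out 1 library left 2 or 3 of the 5 called, with Irf7, Irf9 and Stat2 the ones lost.

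Class I histocompatibility genes, which present peptides to T cells, were mixed and are known to differ in sequence and number between the strains. Of 24 antigen presentation genes tested, 11 were higher (45.8%, against 28.9% of all genes) and 6 lower (25%, against 32.9%). H2-Q10 and H2-Q4 had log2 fold changes of 1.60 and 0.80, and near-identical relatives make both uncertain. H2-K1 stood at 154 and 164 CPM in C57BL/6 cells, against 111 and 116 CPM in DBA/2 cells (log2 fold change 0.48), and H2-D1 at 173 and 183 CPM in C57BL/6 cells, against 169 and 189 CPM in DBA/2 cells, which was not called (-0.01, SE 0.06). The class I transactivator Nlrc5 and the immunoproteasome subunit Psmb10 were lower, at -1.21 and -1.04.

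Stress and redox genes moved in part. Of 17 stress and unfolded protein response genes 11 were higher (64.7%, against 28.9% of all genes) and 2 lower (11.8%, against 32.9%). Of the 11, 5 lie on the shifted chromosomes. Atf3, a stress-induced transcription factor, stood at 72.9 and 68.4 CPM in C57BL/6 cells, against 29.8 and 30.1 CPM in DBA/2 cells (log2 fold change 1.21), and Atf4, a master of amino acid stress, had a log2 fold change of 0.64. The lower members were Dnajb9 and Sdf2l1 (-0.71 and -0.22, named after their values were seen), the second of which was not called under the other scalings, edgeR, DESeq2, or without C57BL/6 replicate 1 or DBA/2 replicate 2. Of 26 antioxidant genes 7 were higher (26.9%, against 28.9% of all genes) and 11 lower (42.3%, against 32.9%). Under TMM, median-of-ratios scaling, edgeR and DESeq2, however, 11 were higher and 10 lower, so the list is given no direction. Nqo1, a quinone reductase controlled by the NRF2 factor, stood at 7.83 and 6.11 CPM in C57BL/6 cells, against 28.1 and 21.5 CPM in DBA/2 cells (log2 fold change -1.69). The secreted enzymes Sod3 and Gpx3 had log2 fold changes of 1.63 and 1.36.

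Cell cycle genes were called near the background rate, 6 of 25 each way (24%, against 28.9% and 32.9% of all genes). E2f1 on chromosome 2 and Mcm2 on chromosome 6 were higher (0.72 and 0.37), and Ccne2 was lower (-0.70). All 4 called CDK inhibitors of 7 were higher (57.1%, against 28.9% of all genes). They were Cdkn2d, Cdkn1a, Cdkn2b and Cdkn2a, from 0.75 to 0.31, the last of which was not called without DBA/2 replicate 1. Of 20 p53 pathway genes 6 were higher (30%) and 7 lower (35%), again near the background, from 1.12 for Fas on chromosome 19 to -1.06 for Pmaip1, a pro-apoptotic protein. Of 13 immediate early genes 5 were higher (38.5%, against 28.9% of all genes) and 4 lower (30.8%, against 32.9%), shares not far from the background. Fosb, Dusp1, Nr4a1, Jun and, on chromosome 19, Fosl1 were higher. Egr3, Egr2, Ier2 and Zfp36 were lower, and some of these genes were named after their values were seen. Ier2 was not called without DBA/2 replicate 2, nor Zfp36 without C57BL/6 replicate 2. Fosb, of the AP-1 complex, stood at 413 and 378 CPM in C57BL/6 cells, against 146 and 173 CPM in DBA/2 cells (1.31), while Egr3 stood at 58.1 and 49.8 CPM in C57BL/6 cells, against 152 and 172 CPM in DBA/2 cells (-1.57). Imprinted genes were called at rates near those of all genes, 6 of 26 higher (23.1%, against 28.9%) and 9 lower (34.6%, against 32.9%), with Igf2 and Grb10 at 1.18 and 1.06. Among DNA methylation genes Tet1, which oxidises methylated cytosine, and the methyltransferase gene Dnmt3a were lower (-0.74 and -0.61).

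The same backgrounds can be set against each other in 4 other libraries, the C57BL/6 Top1mt knockout at 1% oxygen and the DBA/2 wild type at 20% oxygen, which differ in genotype and oxygen as well. That contrast called 5180 genes higher (34.9%) and 6385 lower (43% of genes tested). Of the 498 genes at least 2-fold higher in C57BL/6 wild-type cells, 464 were also higher there (93.2%), which is 8.96% of all its higher calls, and 13 were lower. Of the 280 at least 2-fold lower genes, 252 were also lower (90%), which is 3.95% of its lower calls, and 8 were higher. Over all called genes the shares were smaller. Of the 4284 higher genes, 2827 were also higher there (66%) and 832 were lower. Of the 4890 lower genes, 3575 were also lower (73.1%) and 451 were higher. Gfra1 and Upp1 were among those that changed direction, with log2 fold changes of -2.12 and 1.19 in the other contrast. The feeder sum differed in the same direction in both, at 51447 CPM in the knockout and 9196 CPM in DBA/2 cells at 20% oxygen. The chromosome shift did not carry over as a whole. In the other contrast the medians were -0.21, 0.22 and -0.15 for chromosomes 2, 6 and 19. Those of the other 16 autosomes lay between -0.34 and -0.04. Chromosome 6 thus stood above that range, while chromosomes 2 and 19 lay within it.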

How the data were processed

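Poly(A) RNA was sequenced as TruSeq stranded libraries, per the labels' protocols. The authors deposited CPM per protein-coding gene, and each library's CPM summed to 1000000. The submitters' processing notes name cutadapt 1.16, STAR 2.6.0c, HTSeq 0.11.2, DESeq2 1.22.2 and mm10, with no word on multiply mapped reads or strand. Every deposited CPM was a whole multiple of 1 read within 0.01, so reads were recovered for alternatives and depth: 15959786 to 22051828 reads in the 4 libraries compared. Counting error is smallest for abundant genes.

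From the CPM, log2(CPM + 1) was fitted with limma 3.58.1 (R 4.3.3) over 16 libraries and 8 group means, with a trended prior, no scaling and no block. Log2 fold changes of low genes are understated by the pseudocount. A gene was called at Benjamini-Hochberg adjusted p under 0.05 over 14841 genes. The scripts were tested on simulated data. Alternatives were TMM and median-of-ratios scaling, pseudocount 0.1, 2 other filters, the 4 libraries alone, edgeR 4.0.16, DESeq2 1.42.0, a replicate block, leaving out each library and, chosen after seeing the data, leaving out chromosomes 2, 6 and 19.

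Genes were named by rule: the 12 largest rises and falls called with a mean of at least 5 CPM in 1 strain and no overlap, up to 4 members of each list by adjusted p, genes at the count floor, and a fixed set of 20. Some genes that the rule names are not reported here. The comparison, the lists and this rule were chosen with earlier results of these data known. Coordinates are GENCODE M21 on GRCm38 (the build named mm10), in which 21897 of 21924 symbols matched once; the other 27, Nnt among them, were left out of chromosome counts. Promoter windows are RefSeq, GRCm38.p6.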

Additional observations from a re-analysis of the deposited data

How the results depend on the processing

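Of 151 tested genes that the naming rule covers, 142 kept their direction and their side of the threshold under every alternative run. The rule picks largely by size of change or adjusted p in these same libraries, so this stability was partly fixed in advance. Genes named only after their values were seen lie outside that count, and several of them lost their call, as given with each. Counts of higher and lower genes stayed within 1.5 times under all alternatives but 1. Leaving out chromosomes 2, 6 and 19, chosen after seeing the data, gave 2753 genes higher. Those chromosomes held 1514 of the 4284 genes called higher, so most of that fall followed from the smaller gene set. The balance of directions moved with scaling: TMM gave 5013 higher and 3991 lower, and edgeR 5135 and 4084. The counts of at least 2-fold differences moved with the method, the pseudocount alone or the model, scaling and low values together: 824 higher and 569 lower with a pseudocount of 0.1, 1005 and 525 with edgeR on the recovered reads, and 952 and 478 with DESeq2. Leaving out 1 library at a time gave 3641 to 3811 genes higher, 4101 to 4250 lower, 462 to 559 at least 2-fold higher and 280 to 310 at least 2-fold lower. With 5 CPM required in the other strain, 0 genes were at the floor in C57BL/6 only. H2-D1, not called in any fit, changed sign under TMM (0.062), median-of-ratios scaling (0.058), edgeR (0.061), DESeq2 (0.057), and with single libraries left out, which gave -0.090 to 0.071. Wt1 and Sox9 were among the 9 genes covered by the rule that changed in direction or call. Medians near 0 changed sign under some alternatives in 12 of the 30 lists.

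Replicate numbers pair nothing in the labels, and the replicate 1 minus replicate 2 differences of the 2 strains correlated at 0.101 across genes. With a replicate block, 4375 genes were higher and 4965 lower, 498 and 280 of them at least 2-fold. Depth limits the genes near 1 CPM, where the SE is widest. The causes of these shifts were not tested.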
